A study of Macaca mulatta with 6 samples.

Results

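The 10 genes described here are 6 calcium-calmodulin kinases (CAMK2A, CAMK2B, CAMK2D, CAMK2G, CAMK4 and CAMKK2), 3 subunits of the phosphatase calcineurin (PPP3CA, PPP3CB and PPP3R1) and NRGN, which encodes the small calmodulin-binding protein neurogranin. They were named by gene symbol, and the choice was made with earlier results of these data known. All 10 were found among the 23191 genes of the table, and all 10 had a mean of at least 10 normalized counts over the 6 libraries and were tested with the 16595 genes that did so. The libraries hold polyadenylated RNA of purified cortical neurons from male rhesus monkeys (Macaca mulatta), 3 to 4 years old. Animals of the morphine group received this opioid subcutaneously for 90 days, with 3 injections daily whose dose grew stepwise, starting at 3 mg/kg and reaching 15 mg/kg on day 29 (3 libraries). The saline group was given 0.5 mL/kg of saline on that schedule (3 libraries). The study asked how chromatin folding differs after long morphine exposure, and these libraries give expression. The protocol lists 2 animals in each group, and one animal code stands on all libraries of a group, so at least 2 of the 3 libraries of a group share an animal. P-values here reflect the spread between libraries, which understates that between animals, and morphine and animal cannot be told apart. The sources used here give neither the cortical area nor how neurons were purified.

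Calcium that enters a neuron binds calmodulin, and calcium-calmodulin then switches on kinases and a phosphatase with opposing actions. CaM kinase II is a large ring of subunits, encoded by the CAMK2 genes, which keeps part of its activity after calcium has fallen by phosphorylating itself and which is needed for long-term potentiation at excitatory synapses. CaM kinase IV acts mainly in the nucleus and is switched on in part by the upstream kinase CAMKK2. Calcineurin joins a catalytic subunit (PPP3CA or PPP3CB in brain) to a calcium-binding regulatory subunit (PPP3R1), responds to small rises of calcium and takes part in long-term depression. Neurogranin holds calmodulin in dendrites and spines at low calcium and lets it go as calcium rises.

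Reads counted in genes, recovered from the normalized values, numbered between 31238653 and 36345095 per library. Values below are the authors' normalized counts, that is, reads divided by a size factor of the library. Glial RNA was present in libraries labelled as neurons. The summed level of 9 measured astrocyte markers was 236352 to 239469 normalized counts in morphine and 291110 to 295972 in saline libraries, with 5 fallen and 1 risen. The 7 oligodendrocyte markers summed to between 265811 and 268050 in morphine and between 259685 and 264231 in saline libraries (3 rose, 2 fell). Of 5 microglia markers 4 rose and 1 fell (7405 to 7873 in morphine and 4985 to 5287 in saline libraries), of 6 oligodendrocyte precursor markers 4 rose (23654 to 24312 in morphine and 19521 to 19701 in saline libraries), and of 11 vascular and fibroblast markers 3 rose and 3 fell (12060 to 12563 in morphine and 13339 to 13467 in saline libraries). Among neurons, 6 of 11 pan-neuronal markers fell and 2 rose (200975 to 205569 in morphine and 252037 to 261645 in saline libraries), 2 of 11 excitatory markers fell (40949 to 41494 in morphine and 40681 to 41701 in saline libraries), and 3 of 10 inhibitory markers rose and 1 fell (27525 to 29637 in morphine and 26250 to 27000 in saline libraries). The genes with the smallest adjusted p in each list (log2 fold change) were GJA1 (-0.94) and SLC1A3 (-0.58) of astrocytes, MAL (0.61) and UGT8 (-0.50) of oligodendrocytes, and TREM2 (1.69) and CSF1R (0.87) of microglia. In the others they were OLIG2 (0.52) and BCAN (0.28) of precursors, COL1A1 (3.54) and COL1A2 (2.34) of the vascular and fibroblast list, NEFL (-0.73) and NEFM (-0.57) of all neurons, SLC17A6 (-0.34) and RORB (-0.41) of excitatory neurons, and NPY (0.77) and SST (0.53) of inhibitory neurons. COL1A1 was low in saline libraries (a mean of 16.5 normalized counts), and the fibroblast markers DCN (0.12) and LUM (0.27) did not pass. Only markers found by symbol could be measured, among them 5 of 10 named for microglia and 7 of 10 named for oligodendrocytes. Over all genes tested, 12.9% rose and 15.0% fell. The part of cell makeup in the results below was not tested. In such bulk RNA, fewer cells of a type and less RNA per cell cannot be told apart.

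PPP3CA, PPP3CB, PPP3R1 and NRGN were lower with morphine, and within the CaM kinase II family CAMK2B was higher. At an adjusted p under 0.05 in limma (Benjamini-Hochberg over all genes tested), 1 of the 10 genes rose (CAMK2B) and 4 fell (PPP3CA, PPP3CB, PPP3R1 and NRGN), while 5 did not pass (CAMK2A, CAMK2D, CAMK2G, CAMK4 and CAMKK2). Of all genes tested 27.9% were called, 12.9% as risen and 15.0% as fallen. Most of the 10 genes are abundant, and abundant genes were called more often: of tested genes with a mean of at least 1000 normalized counts 38.4% were called (16.7% risen and 21.7% fallen), beside 5 of the 9 genes described here that reach that mean. The libraries of the groups did not overlap for 8 of the 10 genes, 2 above and 6 below, as for 48.7% of all genes tested (24.1% above and 24.6% below). Of genes with a mean of at least 1000, 65.0% did not overlap, beside 8 of the 9. The median log2 fold change of the 10 genes was -0.20, against 0.01 over all genes tested.

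**Figure D1:**
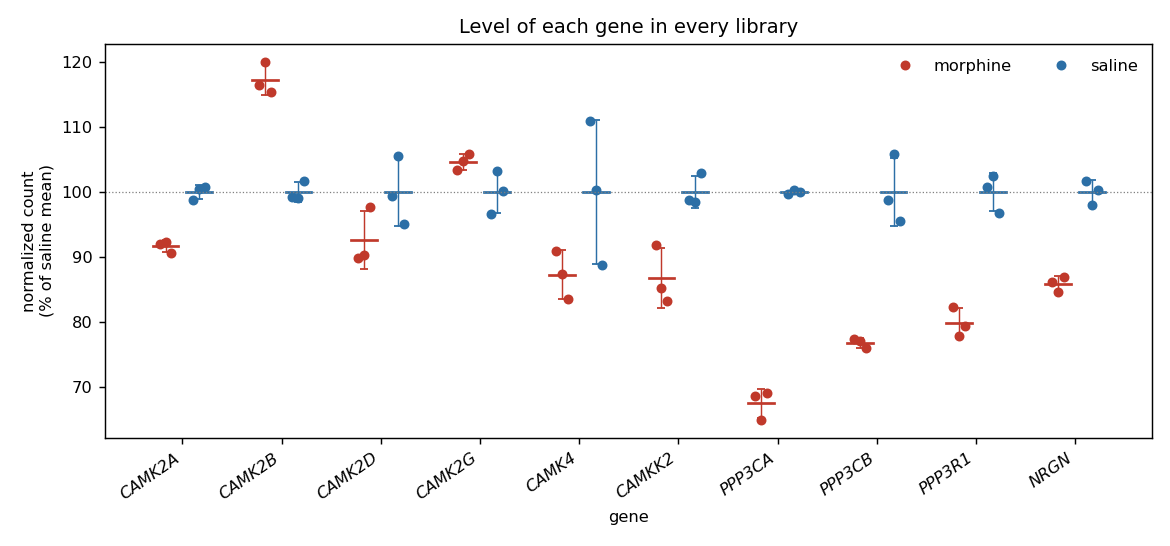
Normalized count of each gene in every library, as a percentage of the mean of its saline libraries (vertical axis, which does not start at 0). Points are single libraries (morphine red, left; saline blue, right), and bars give mean and SD of 3 libraries; the morphine libraries lie below all saline libraries for CAMK2A, CAMKK2, the 3 calcineurin genes and NRGN, and above them for CAMK2B and CAMK2G.

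CAMK2A (ENSMMUG00000011563), the alpha subunit of CaM kinase II and the form that marks excitatory neurons of the forebrain, had 110260, 110610 and 108654 normalized counts in morphine libraries 1, 2 and 3, against 118275, 120404 and 120774 in saline libraries 1, 2 and 3. The groups did not overlap, and the mean was 8.33% lower with morphine. The log2 fold change of -0.13 ± 0.0448 (SE, 95% interval -0.24 to -0.01) did not pass in limma (adjusted p = 0.0954). CAMK2B (ENSMMUG00000002433), the beta subunit, which binds actin filaments, had 41375, 42653 and 41027 normalized counts with morphine, against 35283, 35221 and 36170 with saline. Every morphine library thus lay above every saline library, and the mean was 17.2% higher. Its rise of 0.23 ± 0.0472 on the log2 scale had an adjusted p of 0.0229 in limma. In fits without 1 library, the rise stayed between 0.21 and 0.24 but did not pass for any library left out (adjusted p from 0.0552 to 0.0768).

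CAMK2G (ENSMMUG00000021393), the gamma subunit, which carries calmodulin to the nucleus in rodent neurons, had 16998, 17209 and 17399 normalized counts in morphine libraries and 15895, 16958 and 16469 in saline libraries. The morphine libraries lay just above the highest saline library, and the difference did not pass (log2 fold change 0.07 ± 0.0502, 95% interval -0.06 to 0.19, adjusted p = 0.373). CAMK2D (ENSMMUG00000008587), the delta subunit, which predominates in heart, had 3037, 3051 and 3304 normalized counts in morphine libraries and 3359, 3567 and 3215 in saline libraries. These groups overlapped, and the log2 fold change was -0.11 ± 0.0671 (95% interval -0.28 to 0.06, adjusted p = 0.274). The 4 CAMK2 genes encode similar proteins, and the sources used here do not say how reads shared between paralogs were assigned.

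The summed level of the CAMK2 genes differed less between the groups than its makeup did. Together they held 171670, 173524 and 170384 normalized counts in morphine libraries and 172813, 176151 and 176628 in saline libraries, a mean 1.91% lower with morphine. As a share of all reads counted in genes the order turned, with 0.520% ± 0.00535 in morphine and 0.515% ± 0.00659 in saline libraries. The direction of the sum thus depends on the scaling. The share of CAMK2 reads that came from CAMK2A was 63.9% ± 0.272 in morphine and 68.4% ± 0.0456 in saline libraries (SD, n = 3 each). The share from CAMK2B was 24.3% ± 0.283 in morphine and 20.3% ± 0.263 in saline libraries. CAMK2G gave 10.01% ± 0.175 of these reads in morphine and 9.38% ± 0.221 in saline libraries. CAMK2D gave 1.82% ± 0.101 in morphine and 1.93% ± 0.103 in saline libraries. These are shares of reads and not of molecules, since transcript lengths were not used.

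CAMK4 (ENSMMUG00000011974), the nuclear CaM kinase IV, was the least abundant of the 10 genes in reads, with 430 to 574 per library. It had 464.4, 446.7 and 426.6 normalized counts in morphine libraries and 566.4, 512.2 and 453.5 in saline libraries. Morphine library 1 lay above saline library 3, so the groups overlapped, and the saline spread (a coefficient of variation of 11.1%) was wider than the counting error of up to 4.82% that these reads carry. The log2 fold change was -0.19 ± 0.0966, with a 95% interval of -0.43 to 0.05 and an adjusted p of 0.201. CAMKK2 (ENSMMUG00000016969), the kinase that phosphorylates CaM kinases I and IV and AMP-activated kinase, had 26081, 24204 and 23602 normalized counts in morphine libraries and 28009, 27916 and 29193 in saline libraries. No morphine library reached a saline library, and the mean was 13.2% lower, but the log2 fold change of -0.21 ± 0.0603 did not pass in limma (95% interval -0.36 to -0.05, adjusted p = 0.0588).

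**Figure D2:**
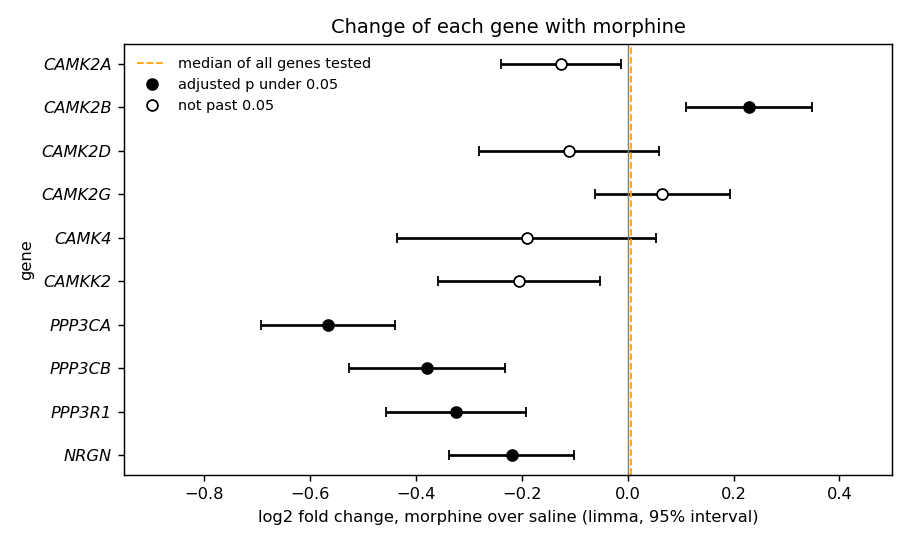
Log2 fold change of each gene, morphine over saline (horizontal axis), with its 95% interval from limma over 3 morphine and 3 saline libraries. Filled points passed an adjusted p of 0.05; the 3 calcineurin genes and NRGN lie left of 0 and CAMK2B right of it, and the dashed line is the median of all genes tested (0.01).

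The largest changes among the 10 genes were in the 3 calcineurin genes, and each of them fell. PPP3CA (ENSMMUG00000004599), the alpha form of the catalytic subunit, had 34317, 32498 and 34521 normalized counts in morphine libraries, against 49841, 50110 and 49965 in saline libraries. The highest saline library was 0.540% above the lowest, the morphine libraries were all far below them, and the mean was 32.4% lower. The saline spread (a coefficient of variation of 0.269%) was narrower than the counting error of up to 0.556% that these reads carry. The morphine coefficient of variation was 3.30%. Its log2 fold change was -0.57 ± 0.0498 (95% interval -0.69 to -0.44, adjusted p = 0.0034 in limma), and 21.0% of all genes tested had a larger absolute change. PPP3CB (ENSMMUG00000015714), the beta form of the catalytic subunit, had 10342, 10298 and 10148 normalized counts in morphine libraries and 13183, 14120 and 12746 in saline libraries. It fell by 0.38 ± 0.0581 on the log2 scale (adjusted p = 0.0107), and the groups were well apart. PPP3R1 (ENSMMUG00000046264), the calcium-binding regulatory subunit B, had 20367, 19271 and 19638 normalized counts in morphine libraries and 24908, 25351 and 23951 in saline libraries. It fell by 0.32 ± 0.0525 (adjusted p = 0.0124), again with no overlap.

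Added up, the 3 calcineurin genes held 65026, 62066 and 64308 normalized counts in morphine libraries and 87931, 89581 and 86662 in saline libraries, a mean 27.5% lower with morphine. As a share of all reads counted in genes they made up 0.193% ± 0.00422 with morphine and 0.259% ± 0.00393 with saline (SD, n = 3 each). Each of the 3 falls passed in all 6 fits without 1 library (adjusted p from 0.0162 to 0.0183 for PPP3CA, from 0.0259 to 0.0419 for PPP3CB and from 0.0313 to 0.0479 for PPP3R1). With the replicate number as a block, PPP3CA passed (adjusted p = 0.0426) and PPP3CB and PPP3R1 did not (0.0566 and 0.0648). In the same libraries, falls were also called for 6 of 11 pan-neuronal and 5 of 9 astrocyte markers. Rises were called for 2 pan-neuronal markers (RBFOX3 and TUBB3) and 1 astrocyte marker (GFAP). The 11 excitatory markers gave 2 falls and 0 rises. For comparison, 15.0% of all genes tested fell, and 21.7% of those with a mean of at least 1000 normalized counts. What part cell makeup had in the calcineurin falls was not tested.

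NRGN (ENSMMUG00000008481) had 52993, 52033 and 53402 normalized counts in morphine libraries, against 62504, 60240 and 61643 in saline libraries. All morphine libraries were lower, with a mean 14.1% below that of saline. The fall of 0.22 ± 0.0466 on the log2 scale (95% interval -0.34 to -0.10) had an adjusted p of 0.0249 in limma. In the 6 fits without 1 library the log2 fold change lay between -0.23 and -0.21 and did not pass for any library left out (adjusted p from 0.0543 to 0.0825).

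Ratios of 2 genes within a library are free of the scaling of libraries and of gene length when groups are compared. The log2 ratio of CAMK2A to CAMK2B was 1.41, 1.37 and 1.41 in morphine libraries, against 1.75, 1.77 and 1.74 in saline libraries. The difference of -0.35 ± 0.0159 (SE) is a CAMK2A to CAMK2B ratio 0.782 times that of saline, far beyond the spread within each group. The ratio of CAMK2B to CAMK2G was higher with morphine by 0.16 ± 0.0364, and that of CAMK2D to CAMK2G lower (-0.18 ± 0.0485), both without overlap. Within calcineurin the catalytic PPP3CA was lower against both PPP3R1 and PPP3CB. The log2 ratio of PPP3CA to PPP3R1 was 0.75, 0.75 and 0.81 in morphine libraries, against 1.00, 0.98 and 1.06 in saline libraries. The ratio of PPP3CA to PPP3CB differed by -0.19 ± 0.0526. For these 5 ratios the exact two-sided permutation test gave p = 0.1, the smallest that this test can give with 3 against 3 libraries, and 0.12 after adjustment over 6 ratios, so the permutation test cannot pass 0.05 here. The sixth, CAMK4 to CAMKK2, overlapped between the groups (difference 0.01 ± 0.112, exact permutation p = 0.9).

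**Figure D3:**
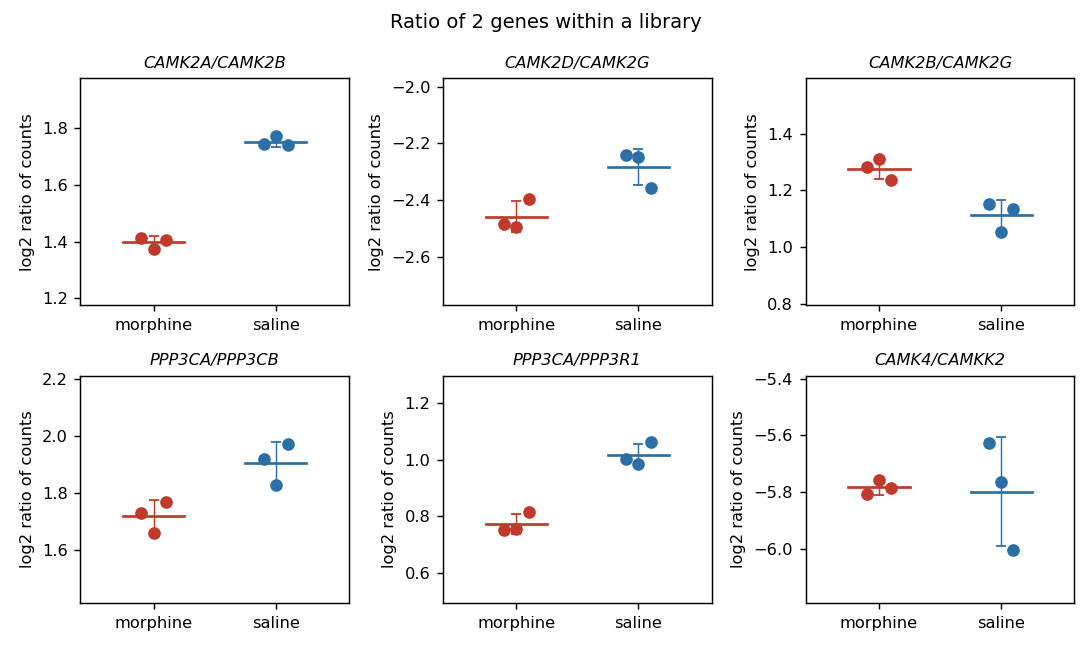
Log2 ratio of the normalized counts of 2 genes within each library (vertical axes, all spanning the same range), in morphine (left) and saline (right) libraries, with mean and SD of 3 libraries. The 2 groups are apart in the first 5 panels and overlap for CAMK4/CAMKK2.

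The 10 genes were also set against the mean of neuronal markers of the same library, and the outcome for CAMK2A, CAMK2G, CAMKK2 and NRGN depended on which markers were taken. The pan-neuronal markers themselves moved in both directions: NEFL, NEFM and SNAP25 had log2 fold changes of -0.73, -0.57 and -0.54, near or beyond that of PPP3CA (-0.57), and RBFOX3 and TUBB3 rose by 0.22 and 0.23. Neuronal content itself was not tested. Against the mean log2 value of 11 pan-neuronal markers, PPP3CA was lower with morphine by a log2 difference of -0.37 ± 0.0188, PPP3CB by -0.18 ± 0.0385 and PPP3R1 by -0.12 ± 0.0286, each without overlap. CAMK2A was higher on this measure (0.07 ± 0.0255), as were CAMK2B (0.43 ± 0.0381) and CAMK2G (0.26 ± 0.0227). NRGN overlapped between the groups (-0.02 ± 0.0274, exact permutation p = 0.5), as did CAMK4, CAMKK2 and CAMK2D. Against the mean of 11 excitatory neuron markers, whose median log2 fold change was -0.07, PPP3CA differed by -0.55 ± 0.024, NRGN by -0.20 ± 0.00985 and CAMK2A by -0.11 ± 0.0369, while CAMK2B was higher by 0.25 ± 0.0407. PPP3CB, PPP3R1 and CAMKK2 differed by -0.36 ± 0.0649, -0.30 ± 0.0449 and -0.18 ± 0.0566. These 7 did not overlap, whereas CAMK2G (0.09 ± 0.0477, exact permutation p = 0.3), CAMK2D and CAMK4 did. The exact permutation p was 0.1 for each difference without overlap, the smallest possible, or 0.167 and 0.143 after adjustment over the 10 genes against pan-neuronal and excitatory markers.

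Around these genes, 84 further genes of calmodulin signalling in 8 lists were examined, of which 75 were measured: 13 rose, 10 fell and 52 did not pass, with a median log2 fold change of 0.03. That is close to the share among all genes tested (27.9% called). Of the calmodulin genes, CALM2 fell by 0.40 ± 0.0542 (35816 ± 385 normalized counts with morphine and 47399 ± 2074 with saline, SD, n = 3 each, adjusted p = 0.00777 in limma). CALM3 had a log2 fold change of -0.12 and did not pass (adjusted p = 0.121).

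Of 16 other calmodulin-dependent and related kinases 4 rose and 1 fell, where 12.9% and 15.0% of all genes did. CAMKK1, the sister kinase of CAMKK2, rose by 0.23 ± 0.049, with 15743, 15489 and 15180 normalized counts in morphine libraries and 13356, 12770 and 13320 in saline libraries. With any single library left out it no longer passed (adjusted p between 0.0577 and 0.0752 in limma). CAMK1D, a CaM kinase I form, rose by 0.48 (0.0372 to 0.0756 in these fits, passing only without morphine library 1 or 3), DAPK2, a death-associated kinase, by 0.69 (0.0274 to 0.0622, passing only without morphine library 1 or saline library 3), and PHKG2, a catalytic subunit of phosphorylase kinase, by 0.34, passing in all 6. CASK, a scaffold with a CaM-kinase-like domain, fell by 0.50 and passed only without saline library 1 (0.0286 to 0.091). Of the 2 measured inhibitors and phosphatases of CaM kinases, CAMK2N2, an inhibitor of CaM kinase II, rose by 0.52 (0.045 to 0.0608, failing without morphine replicate 2 or 3). PPM1F, a phosphatase that reverses CaM kinase II phosphorylation, did not pass (log2 fold change 0.03, adjusted p = 0.851).

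Of 9 other calcineurin subunits and regulators 3 fell and 0 rose in limma, while edgeR and DESeq2 called 4 falls and 1 rise. Over all genes tested, limma called 15.0% as fallen and 12.9% as risen. The shares were 17.7% and 16.3% in edgeR, and 18.9% and 18.0% in DESeq2. RCAN2, a small protein that binds and regulates calcineurin, showed the largest change of the 9: it had 5405, 5762 and 5320 normalized counts in morphine libraries, against 9969, 9470 and 9198 in saline libraries. Its fall of 0.80 ± 0.0609 on the log2 scale had an adjusted p of 0.00266 in limma and passed in all 6 fits without 1 library. RCAN3 fell by 0.44 (adjusted p from 0.0263 to 0.0693 without 1 library, passing only without saline library 1 or 3). FKBP1A, the immunophilin through which tacrolimus inhibits calcineurin, fell by 0.28 (0.0547 to 0.108, passing in 0, and 0.0567 with upper-quartile scaling). CABIN1, a calcineurin inhibitor, had a log2 fold change of 0.60 ± 0.165 and just missed the threshold (adjusted p = 0.0501). It passed in 8 of 18 alternatives, among them upper-quartile scaling (0.0488), edgeR (0.01) and DESeq2 (0.00424). It did not pass with TMM scaling (0.0529), and without 1 library it passed only without saline library 1 (from 0.041 to 0.134). RCAN1 and the third catalytic gene PPP3CC did not pass, with log2 fold changes of -0.15 and 0.03.

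**Figure D4:**
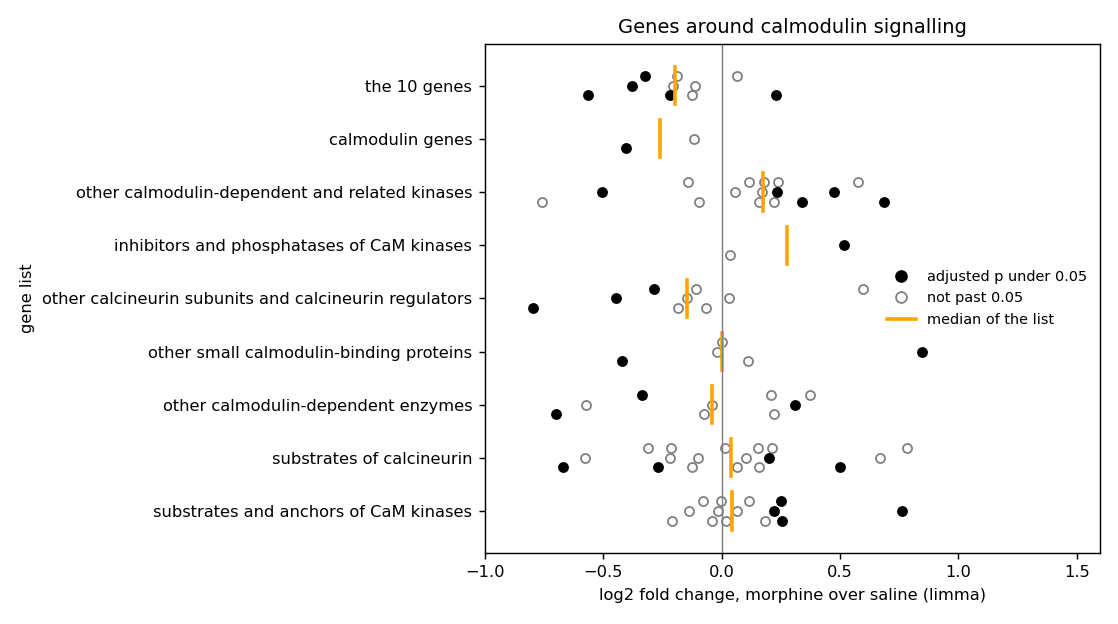
Log2 fold change, morphine over saline, of the 10 genes (top row) and of the measured genes of 8 lists around calmodulin signalling. Filled points passed an adjusted p of 0.05 in limma, and orange bars are list medians, which lie between -0.26 and 0.28. Both measured calmodulin genes lie below 0, both measured inhibitors and phosphatases of CaM kinases above 0, and the other 6 lists hold genes on both sides.

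Of 5 other small calmodulin-binding proteins 1 rose and 1 fell, where 12.9% and 15.0% of all genes tested did. GAP43, a growth cone protein, shares the calmodulin-binding IQ motif of neurogranin. It had 19657, 19668 and 19604 normalized counts in morphine libraries, against 26645, 26658 and 25607 in saline libraries. This was a fall of 0.42 ± 0.0466 on the log2 scale (adjusted p = 0.00507 in limma). PCP4, a further IQ motif protein, which speeds the exchange of calcium by calmodulin, had 2484, 2517 and 2834 normalized counts in morphine libraries, against 1450, 1496 and 1406 in saline libraries. It rose by 0.85 ± 0.072 (adjusted p = 0.00322), and GAP43 and PCP4 both passed in all 6 fits without 1 library. Of the other 3 measured genes of this list, PCP4L1, MARCKSL1 and MARCKS, 0 passed (log2 fold changes of 0.11, -0.02 and 0.00).

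Among 9 other calmodulin-dependent enzymes 1 rose and 2 fell, where 12.9% and 15.0% of all genes tested did. RASGRF2, a calcium-dependent exchange factor of Ras, fell by 0.70 ± 0.0524 (5638 ± 24.4 normalized counts with morphine and 9150 ± 371 with saline, SD, n = 3 each), and the phosphodiesterase PDE1A fell by 0.34, whereas its relative PDE1B rose by 0.31. RASGRF2 and PDE1A passed in all 6 fits without 1 library and PDE1B only without morphine library 1 or saline library 1 (adjusted p from 0.0439 to 0.0761). ADCY3 did not pass (adjusted p = 0.0763). Of 18 calcineurin substrates 2 rose and 2 fell, beside the same shares of all genes tested. The fallen ones were DNM3, a dynamin (by 0.67, passing in all 6 fits), and DNM1L, the dynamin of mitochondrial fission (by 0.27, adjusted p from 0.0641 to 0.121 in these fits), and the risen ones PPP1R1B, the dopamine-regulated phosphatase inhibitor (by 0.50, passing in all 6), and DNM1, the dynamin of synaptic vesicle endocytosis (by 0.20, adjusted p from 0.0586 to 0.121 in these fits and 0.0509 with TMM scaling). None of the NFAT genes (NFATC1, NFATC2, NFATC3 and NFATC4), the transcription factors that calcineurin sends to the nucleus, passed, with log2 fold changes of -0.13, 0.78, 0.10 and 0.16. Of 14 substrates and anchors of CaM kinases 4 rose and 0 fell, where 12.9% and 15.0% of all genes tested did. With TMM scaling 2 rose. In edgeR and DESeq2 6 rose, where these called 16.3% and 18.0% of all genes as risen. Among the risen were SYN1, a vesicle protein (by 0.25), the histone deacetylase HDAC4 (by 0.76) and TIAM1, an exchange factor of Rac (by 0.25). Without 1 library, SYN1 passed only without saline library 1 (adjusted p between 0.0383 and 0.0789) and HDAC4 only without saline library 2 (between 0.0131 and 0.105), and TIAM1 passed in 0 of these fits (between 0.0645 and 0.12). TIAM1 did not pass with TMM scaling either (0.0513). The receptor subunits GRIN2B and GRIA1 and the scaffold DLG4 did not pass (-0.14, -0.01 and 0.06).

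The genes closest in pattern to CAMK2A, PPP3CA and NRGN, which have the highest mean of their kind, were sought among 5752 other genes with a symbol and a mean of at least 1000 normalized counts. Likeness was the root mean square difference of log2 values over the 6 libraries, each gene centred on its own mean. Closest to CAMK2A were SPTBN1, NRDC and KIF3B (differences of 0.00984, 0.0125 and 0.0136). Closest to PPP3CA were VPS50, GOLM2 and the astrocyte glutamate carrier SLC1A3 (0.0168, 0.0193 and 0.028), and closest to NRGN were RPL3, MGLL and HIVEP2 (0.0116, 0.0131 and 0.0139). Each of these genes has a log2 fold change close to that of its partner, such as -0.58 for SLC1A3 beside -0.57 for PPP3CA. This closeness follows from how the genes were sought, since likeness was taken over the same 6 libraries.

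Count-based tests called more of the 10 genes. On the recovered reads edgeR and DESeq2 each called 1 rise and 6 falls, adding CAMK2A (adjusted p = 0.000372 in edgeR) and CAMKK2 (0.00455 in edgeR) to the genes above, where edgeR called 34.0% of all genes (16.3% risen, 17.7% fallen) and DESeq2 36.8% (18.0% risen, 18.9% fallen). The authors' deposited table also has 1 rise and 6 falls at an adjusted p under 0.05, where it calls 29.5% of genes (14.3% up, 15.2% down), with a log2 fold change of -0.13 for CAMK2A and -0.20 for CAMKK2. The direction of each of the 10 genes was the same in all 18 alternatives, and CAMK2D, CAMK2G and CAMK4 passed in 0 of them. The authors' subset of 2332 genes, whose absolute log2 fold changes in the authors' deposited table start at 0.585, holds 0 of the 10 genes.

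**Figure D5:**
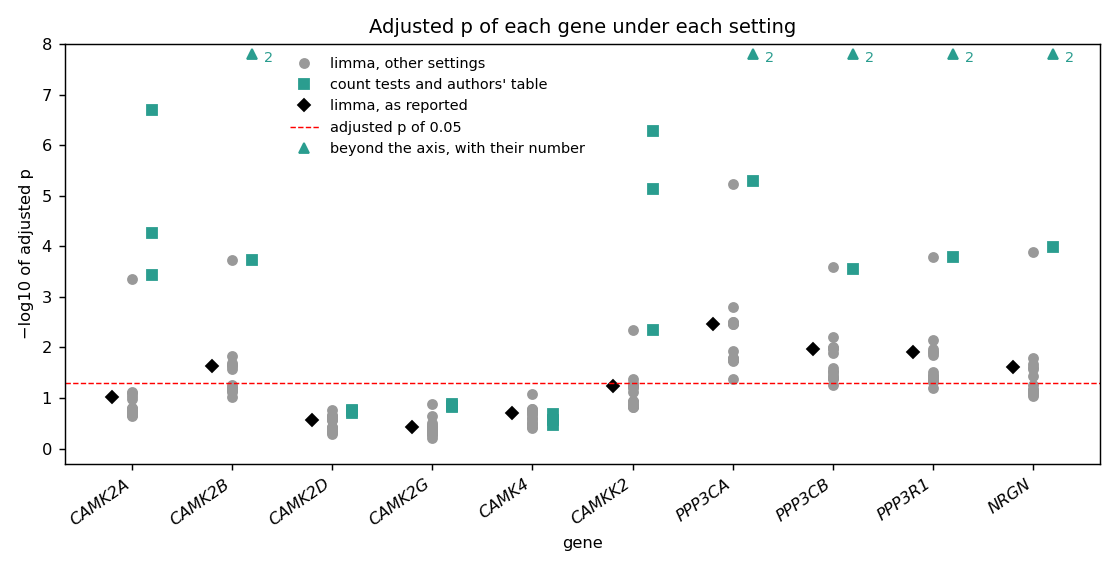
Adjusted p of each gene as −log10 (vertical axis) in limma as reported, in limma under other settings, and in edgeR, DESeq2 and the authors' deposited table. The dashed line marks 0.05, and triangles stand for 10 values beyond 8; only PPP3CA lies above the line in all of the settings shown.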

How the data were processed

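The authors deposited normalized counts (a signal: reads over 1 size factor per library), their log2 fold change with standard error, a test statistic (score), and raw and adjusted p-values, per the file headers. Bowtie2 2.1.0, DESeq2 1.18.1, StringTie and hg19 stand in the submitters' processing notes, without their roles. Gene identifiers are those of rhesus genes, so the counting build is unsettled and coordinates are left out. The sources used here do not say whether counting used strand. Symbols were matched for 15436 of 23191 identifiers. Reads were recovered by dividing by the worth of 1 read (100% of values whole within 0.001 in each library).

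The test was limma 3.58.1 (R 4.3.3) on log2(value + 1) with no trend of variance on level, over 16595 genes with a mean of at least 10, adjusted by the Benjamini-Hochberg method at 0.05. Fold changes on this scale understate those of low genes. Alternatives were TMM and upper-quartile scaling, no filter or a minimum of 50, pseudocounts of 0.5 and 5, an adjusted p of 0.01, an intensity trend, the replicate block, each library left out, edgeR 4.0.16, DESeq2 1.42.0 and the authors' comparison. The limma and edgeR steps were tested on simulated data. Ratios used exact permutation tests (scipy 1.17.1), and figures matplotlib 3.10.9 in Python 3.11.15.

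The 10 genes and all lists were chosen with earlier results of these data known. Named genes are the 10, per pathway list the 4 and per marker list the 2 genes of lowest adjusted p, and the 3 nearest genes to the most abundant kinase, calcineurin gene and neurogranin. CASK, RCAN1, PPP3CC, MARCKS, NFATC1, NFATC2, NFATC3, NFATC4, GRIN2B, GRIA1 and DLG4 are named in addition, chosen after seeing their values. So are the markers SNAP25, RBFOX3, TUBB3, GFAP, DCN and LUM. Of the genes this rule names, 1 is not reported here. Libraries of a group differed by more than sampling noise (mean chi-square from 17.5 to 23.8, where noise alone gives a mean of about 1). The median chi-square over genes was lower, from 2.6 to 3.19. Counting errors cover counting only.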

Additional observations from a re-analysis of the deposited data

How the results depend on the processing

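Over all genes tested, 2143 rose and 2488 fell; with no filter on low values 1363 and 1630 did, at an adjusted p under 0.01 634 and 898, and with the replicate block 681 and 896. Without 1 library, between 1064 and 1502 rose and between 1465 and 1680 fell. Of the 10 genes, 1 rose and 4 fell. With no filter 0 rose, and with the replicate block or at 0.01 0 rose and 1 fell (PPP3CA). Without 1 library 0 rose (lowest and highest value 0), and the same 3 calcineurin falls passed each time. With 1 library or the block fewer degrees of freedom are left. Same-numbered libraries showed no shared deviation (correlations from -0.0563 to -0.00392, against -0.025 to 0.0524 for the other pairs). With 3 libraries in each group this cannot exclude pairing by number. The block was run as an alternative. Of 180 log2 fold changes of the 10 genes under alternatives, 149 kept their side of the threshold, 9 moved past it and 22 fell short of it, with 0 reversed. Those under the other filters, the trend, the block and the threshold of 0.01 could not reverse. Of the counts of pathway lists, 213 of 288 stayed within 1.5 times. Upper-quartile scaling raised the share of rises among calls to 50.6%, against 46.3%. Depth limits CAMK4 most, with 430 reads in its lowest library, where counting error alone is 4.82%.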
